A study of Homo sapiens with 12 samples.

Results

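The genes described here are 46 genes that act in the G2 phase and in mitosis, measured by RNA-sequencing in THP1 monocytes that were cultured alone or with endothelial cells (ECs). They were chosen by name from the 58735 rows of the deposited count table, in which each of the 46 symbols has 1 row, and all 46 passed the filter of at least 10 counts over the 12 libraries. THP1 cells are a line of human monocytic leukaemia cells that divide in culture. There were 4 groups of 3 libraries, namely mono-culture and 3 co-cultures, in which the partner cells were control ECs, senescent ECs (senECs) or EGCG-treated senECs. The ECs were human umbilical vein cells that had received DMSO (control), etoposide, a topoisomerase inhibitor that damages DNA and makes the cells senescent, or etoposide and EGCG, a catechin of green tea. They were washed and counted before the co-culture, at 500000 per well, and 400000 THP1 cells were placed above them on a membrane with 1 µm pores, so that the cell populations shared medium and were not mixed. Mono-culture was kept in the same endothelial medium without ECs. After 24 h the THP1 cells of every group, mono-culture included, were taken off and given 100 ng/ml LPS for 2 h, so that no library shows THP1 cells without LPS. Replicates are numbered 1, 2 and 3 for the first 2 of these groups, and 1, 2 and 5 for the senEC and the EGCG-treated senEC co-culture, and values are given in that order throughout. The labels do not say whether the numbers stand for separate cultures, so that p-values measure the spread between these libraries, which may be technical.

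Cells that pass from G2 into mitosis switch on cyclin B with its kinase CDK1, build a spindle, attach each chromosome to it through kinetochores, and hold back chromosome separation until the spindle checkpoint is satisfied. The anaphase-promoting complex (APC/C) then marks cyclin B and securin for destruction, separase cuts cohesin, and the cell divides by cytokinesis. Transcripts of most of these genes accumulate late in the cell cycle and are low in resting cells, which makes their summed level a usual reading of how many cells of a culture divide. In bulk RNA fewer dividing cells and less of these RNAs per dividing cell cannot be told apart. Circulating monocytes rarely divide, whereas THP1 cells proliferate.

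Promoters of genes of this kind are known for 2 short elements, the cell cycle genes homology region (CHR, TTTGAA), read by the DREAM and MMB complexes, and the CCAAT box, read by the factor NF-Y. RefSeq promoters of 300 bases (250 before and 50 after the start, GRCh38.p14) were at hand for 39 of the 46 genes, with 50 promoters in all. TTTGAA on either strand stood in 31 of the 50 (62.0%), against 15.2% of all 35116 promoters of the same length. The variant TTCGAA, which is its own reverse complement, stood in 3 of them, against 1.45%, and CCAAT on either strand in 35 (70.0%), against 34.6%. Both TTTGAA and CCAAT were found in 24 promoters of 22 genes, 48.0% against 5.90% of all promoters. A match describes letters and not a bound site. Shown first are the 110 bases upstream of the start of 6 genes whose window holds no annotated exon, 3 of them (ESPL1, CENPF and KIF20B) because their RNAs differ between libraries below. They run 5′ to 3′ on the strand of the gene, with TTTGAA and its reverse complement TTCAAA in capitals, and likewise CCAAT and its reverse complement ATTGG.
ESPL1: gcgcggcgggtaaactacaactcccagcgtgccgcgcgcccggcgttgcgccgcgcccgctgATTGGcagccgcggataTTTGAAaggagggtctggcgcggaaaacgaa
CENPF: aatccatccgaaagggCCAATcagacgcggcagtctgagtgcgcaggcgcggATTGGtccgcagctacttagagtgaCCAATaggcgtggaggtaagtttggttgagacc
KIF20B: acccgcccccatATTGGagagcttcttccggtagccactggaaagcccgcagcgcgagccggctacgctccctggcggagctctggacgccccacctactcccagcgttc
MKI67: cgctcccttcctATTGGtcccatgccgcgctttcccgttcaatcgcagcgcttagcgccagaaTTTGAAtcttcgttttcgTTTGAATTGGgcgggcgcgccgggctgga
CKS2: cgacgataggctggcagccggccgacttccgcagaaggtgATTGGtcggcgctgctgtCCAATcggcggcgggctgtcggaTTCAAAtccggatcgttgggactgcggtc
KIF11: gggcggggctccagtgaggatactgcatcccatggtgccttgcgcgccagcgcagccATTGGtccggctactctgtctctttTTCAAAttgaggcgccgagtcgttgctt
These windows lie at chr12:53268189-53268298 (plus strand), chr1:214603085-214603194 (plus), chr10:89701480-89701589 (plus), chr10:128126424-128126533 (minus), chr9:89311085-89311194 (plus) and chr10:92593020-92593129 (plus). In ESPL1 TTTGAA begins 31 bases before the start and ATTGG 48 bases before it, and CKS2 and KIF11 hold the 2 elements in a like order, with TTCAAA 29 and 28 bases before the start. MKI67 has TTTGAA at 47 and at 29 bases, the latter sharing its last base with an ATTGG. CENPF has CCAAT or ATTGG at 94, 58 and 33 bases and KIF20B an ATTGG at 98 bases, and neither holds TTTGAA in its 250 upstream bases. For PLK1 and CDC20, whose windows overlap annotated exons, only the 30 bases around TTTGAA are shown, at chr16:23678848-23678877 and chr1:43358904-43358933 (both plus strand), where it begins 29 and 65 bases before the start.
PLK1: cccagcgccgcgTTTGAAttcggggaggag
CDC20: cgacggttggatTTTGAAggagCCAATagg

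Library totals ran from 15439836 to 22092600 counts, and in the smallest library a count of 0 allows a level of up to 0.194 CPM (counts scaled to library size by TMM), a limit that covers counting error only. No mitotic gene came near it: the lowest count of any of them in any library was 214 (CDC25C). Of 12 monocyte markers, 10 were present in every library at 5.91 CPM or more (the lowest value being that of CD14), while CD68 (0.108 to 0.857 CPM) and CD86 (0 to 0.305 CPM) were at or near 0. Of 14 endothelial markers, summed at 21.9 to 34.8 CPM, MMRN1 had no count and CDH5 at most 1 count in any library, VWF reached 2.20 CPM, and EGFL7 alone, at 17.8 to 30.4 CPM, made most of the sum. The summed endothelial markers were 21.9 to 27.98 CPM in mono-culture, which held no ECs, 25.5 to 27.9 with control ECs, 26.1 to 34.8 with senECs, and 25.8 to 29.1 where the senECs had received EGCG. Copies and pseudogenes of the mitotic genes held few reads, the highest being CKS1BP3 at a mean of 1.99 CPM and CDC20P1 at 1.01 CPM. Of the 46 genes, 27 overlap another annotated gene (PLK1 overlaps ERN2 and SMC4 overlaps IFT80 and TRIM59, for example), and whether reads were counted by strand is not given in the sources used here.

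All 46 genes were expressed in all 12 libraries. Together they held 0.594% to 0.768% of the counts. Per length of the gene's exons (FPKM, which allows genes to be compared), CDC20, the activator of the APC/C at anaphase, was the highest with a mean of 419.6, followed by TOP2A, the topoisomerase that untangles chromosomes, at 118, CCNB1 (cyclin B1) at 79.8, CKS2, a small subunit of the cyclin-dependent kinases, at 74.6, and TPX2, which activates Aurora A on the spindle, at 69.5. At the lower end stood CDC25B and CDC25C, the phosphatases that release CDK1 from its inhibition, at 4.05 and 4.28 FPKM, and NUSAP1, a microtubule-binding protein of the spindle, at 5.69. Between those ends many neighbours in the order overlapped in their ranges over libraries, as CCNB1 and CKS2 did.

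**Figure D1:**
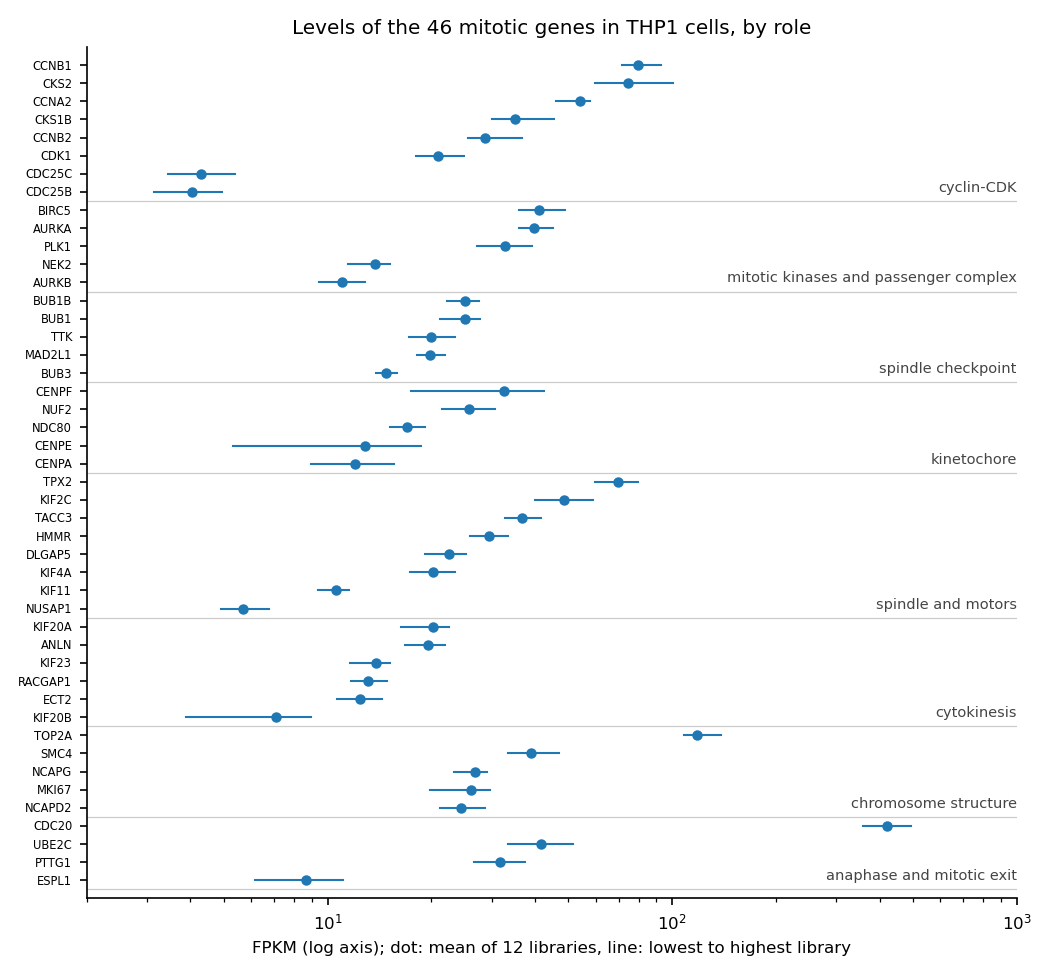
FPKM of the 46 mitotic genes on a log axis, grouped by role, with a dot for the mean of the 12 libraries and a line from the lowest to the highest library. CDC20 stands alone at the top with a mean of 419.6 FPKM, CDC25B is lowest with 4.05, and the line is longest for CENPE, CENPF and KIF20B.

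The mean log2 (CPM + 2) of the 46 genes was 6.75, 6.59 and 6.47 in the mono-culture libraries, 6.74, 6.56 and 6.60 with control ECs, 6.74, 6.64 and 6.72 with senECs, and 6.67, 6.73 and 6.53 where the senECs had received EGCG. The group means with their SD (n = 3) were 6.60 ± 0.14, 6.63 ± 0.093, 6.70 ± 0.051 and 6.64 ± 0.11, and the ranges of all 4 groups overlapped. The lowest library was mono-culture replicate 3 and the highest mono-culture replicate 1, both of the same group.

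**Figure D2:**
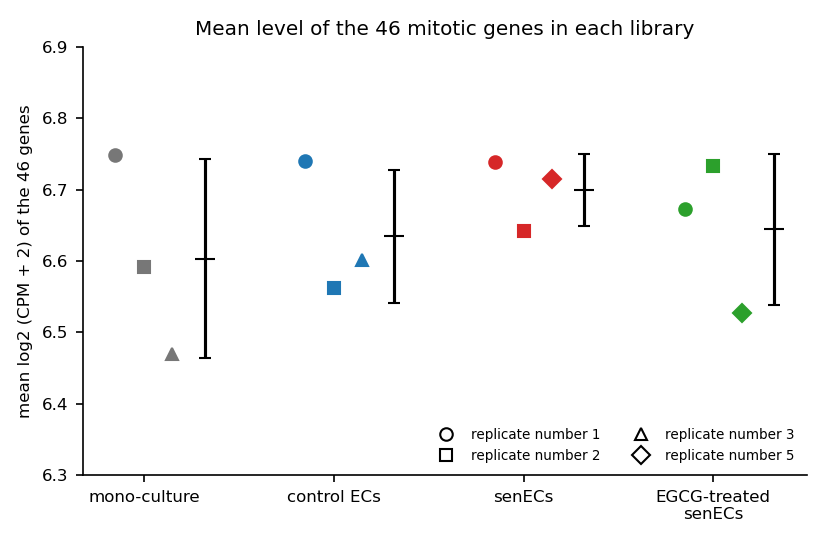
Mean log2 (CPM + 2) of the 46 mitotic genes in each library (points, shaped by replicate number) with the mean and SD of each group (bars, n = 3); the axis does not start at 0. The 4 groups overlap, and the lowest (6.47) and the highest (6.75) library are both mono-culture.

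The first group of genes holds the cyclins, their kinase and its regulators. CCNB1, the cyclin that starts mitosis, was counted at 207, 199 and 183 CPM in mono-culture, 199, 186 and 198 with control ECs, 218, 203 and 238 with senECs, and 204, 222 and 194 where the senECs had received EGCG. CCNB2, a second B-type cyclin found on the Golgi, was counted at 80.3, 76.01 and 71.4 CPM in mono-culture, 71.7, 76.4 and 80.2 with control ECs, 79.3, 83.2 and 103 with senECs, and 72.98, 91.7 and 74.8 where the senECs had received EGCG. For both, replicate 5 with senECs was the highest of the 12 libraries, and for CCNB1 the senEC libraries lay above all 3 libraries with control ECs (log2 fold change 0.18, SE 0.10, adjusted p = 0.728 in edgeR). CKS1B, which like CKS2 binds CDK1 and CDK2, had 70.2, 80.96 and 72.5 CPM in mono-culture, 75.5, 73.5 and 81.5 with control ECs, 80.2, 89.4 and 106 with senECs, and 76.6, 92.9 and 81.8 where the senECs had received EGCG. CKS2 itself had 43.4, 45.97 and 42.1 CPM in mono-culture, 49.8, 42.7 and 40.8 with control ECs, 43.6, 41.9 and 61.8 with senECs, and 50.1, 49.7 and 36.6 where the senECs had received EGCG. Replicate 5 with senECs was again the highest for both, and the libraries of every pair of groups overlapped for CKS2. Of the other 4, CDK1 lay between 70.9 and 97.7 CPM over all libraries, CCNA2 (cyclin A2) between 128 and 162, CDC25B between 13.5 and 21.3 and CDC25C between 11.5 and 17.97. None of these 8 genes passed the test between any 2 groups.

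Among the mitotic kinases and the chromosomal passenger complex, BIRC5 (survivin, which targets Aurora B to centromeres) was counted at 144, 147 and 137 CPM in mono-culture, 153, 142 and 152 with control ECs, 165, 162 and 187 with senECs, and 164, 181 and 148 where the senECs had received EGCG. All 3 libraries with senECs and all 3 with EGCG-treated senECs lay above the mono-culture libraries, and the senEC libraries also lay above those with control ECs. AURKA, the Aurora kinase of the spindle poles, had 132, 117 and 105 CPM in mono-culture, 119.8, 112 and 109.8 with control ECs, 121, 114 and 115 with senECs, and 123, 119.7 and 105 where the senECs had received EGCG. PLK1, the Polo-like kinase that drives mitotic entry and spindle assembly (chr16:23677656-23690367, plus strand), had 179, 133 and 129.5 CPM in mono-culture, 178, 141 and 133 with control ECs, 178, 158 and 145 with senECs, and 186, 161 and 145 where the senECs had received EGCG. In every group the library numbered 1 was the highest for both kinases. AURKB, the kinase of the passenger complex, lay between 21.2 and 28.8 CPM, and NEK2, which separates the centrosomes, between 35.6 and 46.8 CPM.

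The 5 spindle checkpoint genes had a median SD within groups of 0.10 on the log2 scale, the smallest of the 8 roles. For each gene this SD was pooled, as the root of the mean variance of the 4 groups. BUB1B (BubR1), which with MAD2L1 and BUB3 holds CDC20 inactive, was counted at 122, 113 and 99.3 CPM in mono-culture, 119, 107 and 112 with control ECs, 123, 113 and 110.5 with senECs, and 111, 115 and 102 where the senECs had received EGCG. BUB1, the kinase that gathers checkpoint proteins at kinetochores, had 167, 147 and 128 CPM in mono-culture, 156, 146 and 153 with control ECs, 162, 149 and 151 with senECs, and 142, 157 and 153 where the senECs had received EGCG. The groups overlapped for both. BUB3 had the smallest spread of the 46 genes, between 115 and 132 CPM with a pooled SD within groups of 0.074 on the log2 scale. TTK (MPS1), the kinase at the head of the checkpoint, lay between 78.99 and 108 CPM, and MAD2L1 between 105 and 126.

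The 5 kinetochore genes had the largest median SD within groups, 0.23 on the log2 scale. CENPF, a large coiled-coil protein of the outer kinetochore (chr1:214603195-214664588, plus strand), was counted at 496, 369 and 347 CPM in mono-culture, 459.8, 357 and 369.6 with control ECs, 438, 383 and 342 with senECs, and 396, 403 and 204 where the senECs had received EGCG. CENPE, the kinesin that pulls chromosomes to the middle of the spindle (chr4:103105806-103198409, minus strand), had 177, 113 and 89.1 CPM in mono-culture, 162, 122 and 87.97 with control ECs, 152, 109 and 131 with senECs, and 131, 135 and 50.2 where the senECs had received EGCG. Replicate 5 with EGCG-treated senECs was far the lowest library for both, and their pooled SD within groups was 0.34 and 0.53 on the log2 scale. NUF2, a subunit of the NDC80 complex that grips microtubules, had 88.4, 76.6 and 72.1 CPM in mono-culture, 92.6, 77.9 and 84.5 with control ECs, 87.2, 89.8 and 103 with senECs, and 82.7, 92.2 and 88.9 where the senECs had received EGCG. CENPA, the histone H3 variant that marks centromeres, had 25.5, 21.4 and 17.8 CPM in mono-culture, 30.9, 19.4 and 19.5 with control ECs, 25.7, 23.02 and 25.7 with senECs, and 28.02, 25.3 and 23.03 where the senECs had received EGCG. NUF2 was highest in replicate 5 with senECs, while CENPA was highest in replicate 1 with control ECs. NDC80 itself lay between 54.5 and 69.3 CPM and was not low in replicate 5 with EGCG-treated senECs, where it had 67.4 CPM.

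Of the spindle genes, TPX2 was counted at 260.0, 239 and 215 CPM in mono-culture, 236, 225 and 249.9 with control ECs, 273, 259 and 273 with senECs, and 251, 286 and 240.3 where the senECs had received EGCG. KIF2C (MCAK), a kinesin that takes microtubules apart and corrects faulty attachments, had 179.7, 151 and 145 CPM in mono-culture, 182, 165 and 171 with control ECs, 184, 175 and 215 with senECs, and 182, 184 and 189 where the senECs had received EGCG. Replicate 5 with senECs was the highest library for KIF2C, and for TPX2 all senEC libraries lay above all libraries with control ECs. KIF4A, a kinesin of the chromosome arms and of the midzone, had 93.7, 89.04 and 78.4 CPM in mono-culture, 91.4, 82.6 and 85.4 with control ECs, 101, 93.8 and 98.9 with senECs, and 90.3, 106 and 93.4 where the senECs had received EGCG. DLGAP5 (HURP), which stabilises microtubules near chromosomes, had 85.7, 89.3 and 70.2 CPM in mono-culture, 86.3, 77.7 and 83.2 with control ECs, 88.8, 81.1 and 92.6 with senECs, and 73.3, 85.1 and 78.05 where the senECs had received EGCG. The senEC libraries of KIF4A lay above all mono-culture libraries, with 93.8 against 93.7 CPM for the closest pair, and above all libraries with control ECs. KIF11 (Eg5), the motor that pushes spindle poles apart, lay between 45.6 and 55.95 CPM, TACC3, which links microtubules of the spindle fibres, between 214 and 272, HMMR, a microtubule-binding protein of the spindle poles, between 102 and 132 and NUSAP1 between 14.1 and 19.4.

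Of the genes of cytokinesis, KIF20A (MKLP2), which carries the passenger complex to the midzone, had 88.96, 66.2 and 64.5 CPM in mono-culture, 87.7, 75.3 and 77.2 with control ECs, 89.04, 82.7 and 83.3 with senECs, and 78.8, 87.7 and 76.9 where the senECs had received EGCG. ANLN (anillin), a scaffold of the contractile ring, had 132, 107 and 103 CPM in mono-culture, 126, 113 and 125 with control ECs, 132, 115 and 101 with senECs, and 121, 122 and 111 where the senECs had received EGCG. KIF20B, a kinesin of the midbody, had 58.6, 48.4 and 39.00 CPM in mono-culture, 61.1, 43.9 and 42.7 with control ECs, 57.4, 44.4 and 53.9 with senECs, and 51.3, 54.8 and 26.6 where the senECs had received EGCG. Like CENPE and CENPF, KIF20B was lowest in replicate 5 with EGCG-treated senECs, while KIF20A and ANLN were not. KIF23, the kinesin of the centralspindlin complex, lay between 76.3 and 100.1 CPM, ECT2, the activator of RhoA in cytokinesis, between 58.4 and 79.3, and its partner RACGAP1 between 52.6 and 66.5.

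Of the genes of chromosome structure, TOP2A had 891, 775 and 707 CPM in mono-culture, 808, 708 and 766 with control ECs, 816, 725 and 697 with senECs, and 726, 759 and 749 where the senECs had received EGCG. SMC4, a core subunit of condensin, had 397, 351 and 316 CPM in mono-culture, 348, 319.9 and 352 with control ECs, 356, 324 and 282 with senECs, and 307, 307 and 288 where the senECs had received EGCG. The libraries with EGCG-treated senECs lay below all mono-culture libraries and below all libraries with control ECs for SMC4 and not for TOP2A. MKI67, whose product Ki-67 coats mitotic chromosomes and is used to mark dividing cells, had 380.5, 254 and 288 CPM in mono-culture, 374, 339 and 347 with control ECs, 367, 343 and 294 with senECs, and 312, 362 and 345 where the senECs had received EGCG. NCAPD2, a condensin I subunit, had 186, 141 and 139 CPM in mono-culture, 175, 154 and 137 with control ECs, 168, 166 and 144 with senECs, and 177, 169 and 146 where the senECs had received EGCG. Every group overlapped every other for both. NCAPG, a further condensin I subunit, lay between 115 and 143 CPM.

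The last group acts at anaphase and at mitotic exit. CDC20 (chr1:43358955-43363203, plus strand) had 934, 736 and 729.7 CPM in mono-culture, 948, 765 and 757 with control ECs, 1008, 870.3 and 948 with senECs, and 963, 841 and 762 where the senECs had received EGCG. UBE2C, the ubiquitin-conjugating enzyme that works with the APC/C, had 56.8, 50.7 and 43.02 CPM in mono-culture, 60.4, 47.5 and 51.2 with control ECs, 58.02, 48.8 and 66.5 with senECs, and 54.8, 56.1 and 49.3 where the senECs had received EGCG. ESPL1 (separase, chr12:53268299-53293643, plus strand) had 82.9, 54.7 and 67.4 CPM in mono-culture, 98.6, 78.9 and 69.1 with control ECs, 85.4, 76.3 and 68.1 with senECs, and 93.03, 70.7 and 78.5 where the senECs had received EGCG. CDC20 and ESPL1 were higher in the library numbered 1 than in the others of the same group, while UBE2C was highest in replicate 5 with senECs. PTTG1 (securin, the inhibitor of separase) lay between 53.7 and 75.4 CPM.

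Co-culture with control ECs asks whether healthy endothelium changes THP1 cells, and none of the 46 genes was called against mono-culture. The values nearest to a change were ESPL1 with a mean of 82.2 ± 15.03 CPM (SD, n = 3) against 68.3 ± 14.1 (log2 fold change 0.27, SE 0.15, adjusted p = 0.823) and MKI67 with 353 ± 18.1 CPM against 308 ± 65.2 (log2 fold change 0.20, SE 0.13, adjusted p = 0.868). In edgeR's quasi-likelihood test with Benjamini-Hochberg adjustment over 25873 genes, 0 of the 46 passed an adjusted p of 0.05, where 0.143% of all genes did, and 0 had an unadjusted p under 0.05, where 7.97% of the 9351 genes with a mean of at least 10 CPM, as all 46 have, did. DESeq2 called 0 of them as well. Log2 fold changes lay between -0.092 (KIF23) and 0.27 (ESPL1) with a median of 0.016, beside 0.0051 over all genes tested, and 30 of 46 were above 0, where 52.9% of those 9351 genes were, and the groups overlapped for each of the 46, where 15.5% of the 9351 did not. The 95% interval stayed within 1.5-fold in either direction for 45 of the 46 genes, CENPE being the exception with -0.62 to 0.57 on the log2 scale. With 1 library left out at a time, the median ran from -0.038 (mono-culture replicate 3 left out) to 0.077 (mono-culture replicate 1 left out), ESPL1 from 0.12 (control EC replicate 1 left out) to 0.43 (mono-culture replicate 1 left out) and MKI67 from 0.079 (mono-culture replicate 2 left out) to 0.38 (mono-culture replicate 1 left out).

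Co-culture with senECs against mono-culture gave no call among the 46 genes either. BIRC5 had a mean of 171 ± 13.5 CPM with senECs against 142 ± 5.12 in mono-culture (log2 fold change 0.27, SE 0.10, adjusted p = 0.328). CKS1B had 91.8 ± 13.04 against 74.6 ± 5.67 CPM (log2 fold change 0.30, SE 0.11, adjusted p = 0.339), KIF2C 191 ± 20.9 against 159 ± 18.4 (log2 fold change 0.27, SE 0.10, adjusted p = 0.356) and NUF2 93.3 ± 8.36 against 79.04 ± 8.42 (log2 fold change 0.24, SE 0.11, adjusted p = 0.424). These 4 of 46 had an unadjusted p under 0.05 in edgeR, where 19.2% of genes of at least 10 CPM did, and 0 were called by edgeR, beside 0.309% of all genes, or by DESeq2. The median log2 fold change was 0.096, beside -0.015 over all genes, and 39 of 46 values were above 0, where 59.9% of genes of at least 10 CPM were. All 4 genes of anaphase and mitotic exit (0.13 to 0.24) and all 5 of the spindle checkpoint (0.016 to 0.091) were above 0, while SMC4 was lowest at -0.15. Each checkpoint value was smaller than its SE (0.093 for BUB3 to 0.12 for TTK). Genes of a role were not tested as a set. The groups did not overlap for 2 genes, BIRC5 and KIF4A, where they did not for 24% of genes of at least 10 CPM. Intervals stayed within 1.5-fold for 45 genes, with CENPE as the exception (-0.54 to 0.65). Leaving out 1 library gave medians from 0.029 (mono-culture replicate 3 left out) to 0.17 (mono-culture replicate 1 left out), and a log2 fold change of CKS1B from 0.18 (senEC replicate 5 left out) to 0.39 (senEC replicate 1 left out).

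With EGCG-treated senECs against mono-culture, of the 46 genes 2 had an unadjusted p under 0.05 in edgeR (12.2% of genes of at least 10 CPM), SMC4 with 301 ± 11.3 against 355 ± 40.9 CPM (log2 fold change -0.24, SE 0.11, adjusted p = 0.557) and KIF2C with 185 ± 3.62 against 159 ± 18.4 CPM (log2 fold change 0.22, SE 0.10, adjusted p = 0.579). Calls were 0 in edgeR, beside 0.213% of all genes, and 0 in DESeq2. The median of the 46 log2 fold changes was 0.056 (all genes -0.0013), 30 were above 0 (57.9% of genes of at least 10 CPM), and the groups did not overlap for BIRC5, KIF2C and SMC4 (18.8% of genes of at least 10 CPM). Intervals stayed within 1.5-fold for 43 genes, without CENPE, CENPA and CENPF. The median ranged from -0.00088 (mono-culture replicate 3 left out) to 0.12 (mono-culture replicate 1 left out) when 1 library was left out, and SMC4 from -0.32 (mono-culture replicate 3 left out) to -0.15 (mono-culture replicate 1 left out). The 3 co-cultures share the mono-culture libraries, so that these 3 comparisons are not independent of each other. Mono-culture shares only the replicate numbers 1 and 2 with the senEC and the EGCG-treated senEC co-culture. As the fit by group has no term for the number, differences between the unshared numbers are part of those 2 comparisons.

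Whether senECs change THP1 cells beyond the effect of ECs as such is the comparison with control ECs. These groups share only the replicate numbers 1 and 2, and the last library of each carries a different number. The fit by group has no term for the number. Any difference between those last numbers is therefore part of this comparison and cannot be separated from an effect of senECs in it. CKS1B, at 91.8 ± 13.04 CPM with senECs and 76.8 ± 4.20 with control ECs, was the gene nearest to a call (log2 fold change 0.26, SE 0.11, adjusted p = 0.728), followed by BIRC5 with 171 ± 13.5 and 149 ± 6.21 CPM (log2 fold change 0.20, SE 0.10, adjusted p = 0.728). edgeR called 0 of 46, as it did for 0% of all genes, DESeq2 called 0, and 1 of 46 (CKS1B) had an unadjusted p under 0.05, against 8.95% of genes of at least 10 CPM. The groups did not overlap for CCNB1, BIRC5, KIF4A and TPX2, 4 of 46 genes, where 13.1% of genes of at least 10 CPM did not. The median log2 fold change was 0.077 (all genes -0.0066) and 35 of 46 were above 0, where 60.4% of genes of at least 10 CPM were. The median ranged from 0.026 (control EC replicate 2 left out) to 0.12 (control EC replicate 1 left out) over the fits that leave out 1 library. Without senEC replicate 5 CKS1B stood at 0.14 and BIRC5 at 0.14 on the log2 scale. For 45 of 46 genes the interval excluded a change of more than 1.5-fold, with CENPE as the exception (-0.52 to 0.67).

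Whether EGCG given to the senECs alters the THP1 cells is the comparison of the last 2 co-cultures. The genes nearest to a change were DLGAP5, at 78.8 ± 5.93 CPM with EGCG-treated senECs and 87.5 ± 5.86 with senECs (log2 fold change -0.15, SE 0.11, adjusted p = 1), and CCNB2, at 79.8 ± 10.3 and 88.4 ± 12.4 CPM (log2 fold change -0.15, SE 0.12, adjusted p = 1). In edgeR 0 of 46 were called (0% of all genes) and 0 had an unadjusted p under 0.05 (0.738% of genes of at least 10 CPM), and DESeq2 called 0. Of the log2 fold changes 35 of 46 lay below 0, where 55% of genes of at least 10 CPM did, with a median of -0.045 (all genes 0). Leaving out 1 library moved the median from -0.088 (EGCG-treated senEC replicate 2 left out) to 0.0039 (EGCG-treated senEC replicate 5 left out), CCNB2 from -0.26 (EGCG-treated senEC replicate 2 left out) to -0.026 (senEC replicate 5 left out) and DLGAP5 from -0.21 (EGCG-treated senEC replicate 2 left out) to -0.10 (EGCG-treated senEC replicate 1 left out). All 5 spindle checkpoint genes were below 0, between -0.079 and -0.031, within the spread between libraries. The groups did not overlap for KIF23 alone (2.3% of genes of at least 10 CPM). The interval excluded a change of more than 1.5-fold for 43 genes. The other 3 were CENPE (-0.31, interval -0.91 to 0.28), CENPF (-0.21, interval -0.62 to 0.19) and KIF20B (-0.23, interval -0.67 to 0.20), the genes that were low in replicate 5 with EGCG-treated senECs.

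**Figure D3:**
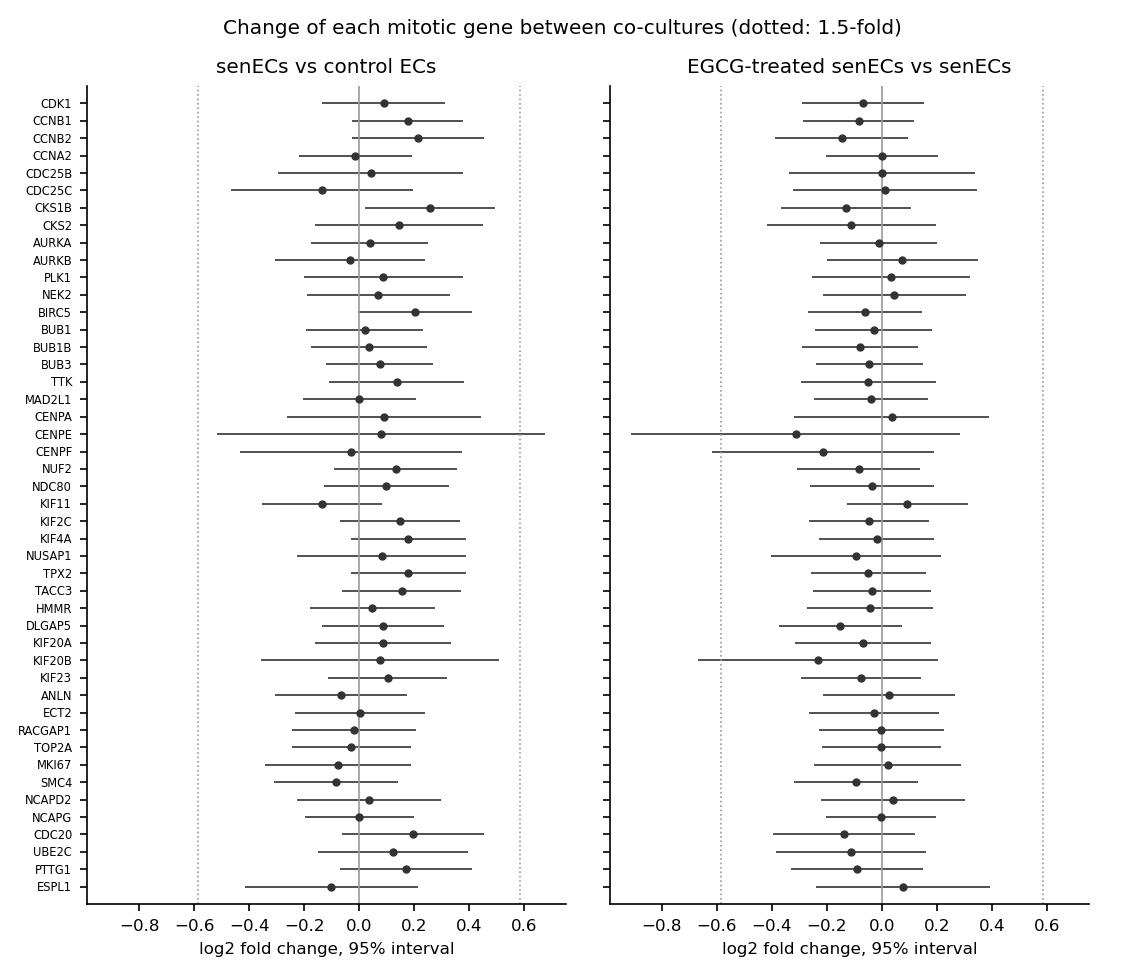
Log2 fold change of each of the 46 mitotic genes with its 95% interval from edgeR, for senECs against control ECs (left) and EGCG-treated senECs against senECs (right); dotted lines mark a change of 1.5-fold. All points lie between -0.31 (CENPE, right) and 0.26 (CKS1B, left), and the intervals of CENPE are the widest.

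EGCG-treated senECs were also set against control ECs. Here too the groups share only the replicate numbers 1 and 2, so that a difference between the unshared numbers is part of the comparison. KIF4A had 96.6 ± 8.32 CPM against 86.5 ± 4.52 (log2 fold change 0.16, SE 0.10, adjusted p = 0.979) and SMC4 301 ± 11.3 against 340.2 ± 17.7 (log2 fold change -0.18, SE 0.11, adjusted p = 0.979). Calls were 0 of 46 in edgeR (0% of all genes) and 0 in DESeq2, 0 had an unadjusted p under 0.05 (3.07% of genes of at least 10 CPM), 27 were above 0 (59.1%), and the median was 0.023 (all genes 0). The groups did not overlap for SMC4 and KIF2C (10.5% of genes of at least 10 CPM). The interval stayed within 1.5-fold for 43 genes, again without CENPE, CENPF and KIF20B. With 1 library left out the median lay anywhere from -0.022 (EGCG-treated senEC replicate 2 left out) to 0.069 (control EC replicate 1 left out), and KIF4A from 0.087 (EGCG-treated senEC replicate 2 left out) to 0.20 (control EC replicate 1 left out).

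Between libraries of different replicate number some of the mitotic genes did differ. In a fit with the group and the replicate number, the libraries numbered 2, 3 and 5 were each set against the libraries numbered 1, which all 3 comparisons share. Number 3 occurs in mono-culture and with control ECs only, and number 5 with senECs and EGCG-treated senECs only. Each of the 8 genes called in any of the 3 was lower than in the libraries numbered 1.

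For libraries numbered 2, edgeR called 5 of 46 genes, all lower, where 4.88% of all genes were called, 2.15% were called lower, and 4.93% of the genes of at least 10 CPM were called lower. PLK1 averaged 148 CPM against 180.2 (log2 fold change -0.29, SE 0.078, adjusted p = 0.00984), CDC20 803 against 963 (log2 fold change -0.27, SE 0.074, adjusted p = 0.0125) and ESPL1 70.2 against 89.99 (log2 fold change -0.36, SE 0.083, adjusted p = 0.000788). CENPE, 119.8 against 155 CPM (log2 fold change -0.35, SE 0.082, adjusted p = 0.00109), and CENPF, 378 against 448 CPM (log2 fold change -0.24, SE 0.077, adjusted p = 0.0446), were the other two. DESeq2 called 3 of these (PLK1, CDC20 and ESPL1). Of the 46 values 38 were below 0, where 48.9% of genes of at least 10 CPM were, with a median of -0.088 (all genes 0.0088). The count was 0 without mono-culture replicate 2, 1 without mono-culture replicate 1, and 2 when replicate 1 or 2 of control ECs or replicate 2 of senECs was left out. The median then ran from -0.13 (EGCG-treated senEC replicate 2 left out) to -0.046 (control EC replicate 2 left out), CENPE from -0.61 (EGCG-treated senEC replicate 2 left out) to -0.21 (senEC replicate 2 left out) and CENPF from -0.38 (EGCG-treated senEC replicate 2 left out) to -0.17 (mono-culture replicate 1 left out). Of the 12 fits that leave out 1 library, ESPL1 was called in 11, CENPE in 9, PLK1 in 8, CDC20 in 6 and CENPF in 4.

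For libraries numbered 3 the count was 8 of 46, all lower, where 3.8% of all genes were called, 0.897% were called lower, and 2.01% of the genes of at least 10 CPM were called lower. CENPE had the largest difference, 88.5 against 169 CPM (log2 fold change -0.85, SE 0.11, adjusted p = 5.58e-12), followed by CENPA, 18.6 against 28.2 (log2 fold change -0.52, SE 0.14, adjusted p = 0.009), and KIF20B, 40.9 against 59.8 (log2 fold change -0.49, SE 0.12, adjusted p = 0.00257). PLK1 averaged 131 CPM against 179 (log2 fold change -0.39, SE 0.10, adjusted p = 0.00675) and ESPL1 68.3 against 90.8 (log2 fold change -0.36, SE 0.11, adjusted p = 0.0337). CENPF (log2 fold change -0.34, SE 0.10, adjusted p = 0.0279), NCAPD2 (log2 fold change -0.33, SE 0.10, adjusted p = 0.043) and CDC20 (log2 fold change -0.31, SE 0.10, adjusted p = 0.0462) completed the list. DESeq2 called 4 of the 8, PLK1, CDC20, NCAPD2 and CENPA. Below 0 were 40 of the 46 values (46.6% of genes of at least 10 CPM), with a median of -0.16 (all genes -0.012). The count was 1 without replicate 1 of mono-culture or of control ECs, 2 without replicate 3 of either, and 5 without replicate 2 of control ECs or of senECs. The median ran from -0.28 (control EC replicate 3 left out) to -0.062 (mono-culture replicate 3 left out) and ESPL1 from -0.55 (mono-culture replicate 3 left out) to -0.19 (control EC replicate 3 left out). CENPE was called in 12 of the 12 fits without 1 library, KIF20B in 9, PLK1, CENPA and ESPL1 in 8 each, CENPF in 7, and NCAPD2 and CDC20 in 6 each.

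For libraries numbered 5 it was 6 of 46, all lower, where 8.16% of all genes were called, 3.46% were called lower, and 6.54% of the genes of at least 10 CPM were called lower. CENPE averaged 90.6 CPM against 141 (log2 fold change -0.80, SE 0.11, adjusted p = 2.36e-10), CENPF 273 against 417 (log2 fold change -0.72, SE 0.10, adjusted p = 1.03e-09) and KIF20B 40.3 against 54.3 (log2 fold change -0.53, SE 0.12, adjusted p = 0.000515). The calls of CENPE and KIF20B rest on 1 library. Without EGCG-treated senEC replicate 5 the 3 log2 fold changes were -0.16, -0.38 and -0.038, and only CENPF was still called. Without senEC replicate 5 the same 3 stood at -1.60, -1.10 and -1.13. PLK1 averaged 145 CPM against 182 (log2 fold change -0.37, SE 0.10, adjusted p = 0.00848), NCAPD2 145 against 173 (log2 fold change -0.31, SE 0.10, adjusted p = 0.0393) and ESPL1 73.3 against 89.2 (log2 fold change -0.33, SE 0.11, adjusted p = 0.0405). PLK1 and CENPF were called with each of the 12 libraries left out in turn, and NCAPD2 and ESPL1 in 5 of the 12 fits each. DESeq2 called 4 genes, CENPF, PLK1, NCAPD2 and CDC20. Below 0 were 35 of the 46 values (49.1% of genes of at least 10 CPM), with a median of -0.090 (all genes -0.050). Without 1 library the median ranged from -0.18 (senEC replicate 5 left out) to -0.05 (EGCG-treated senEC replicate 5 left out) and the count from 4 to 8, the highest without EGCG-treated senEC replicate 5.

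**Figure D4:**
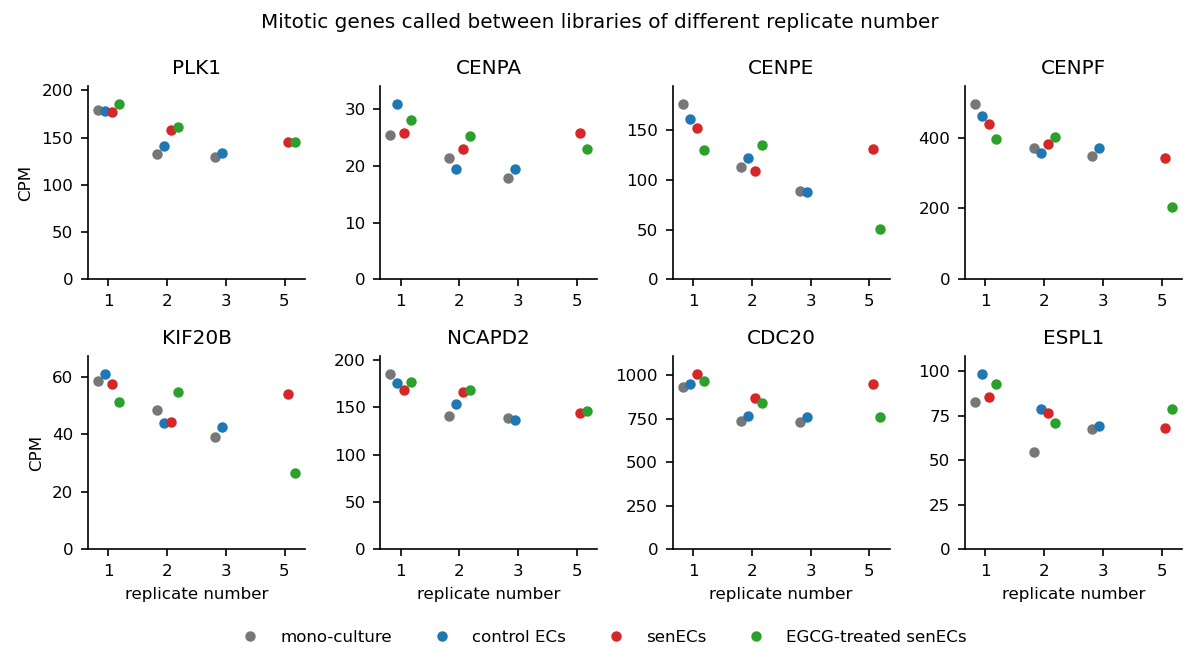
CPM of the 8 mitotic genes called between libraries of different replicate number, by number (horizontal) and culture (colour), 1 point per library, with axes from 0. PLK1 lies between 178 and 186 CPM in the 4 libraries numbered 1 and between 129.5 and 161 CPM in the other 8, and CENPE, CENPF and KIF20B are lowest in the EGCG-treated senEC library numbered 5.

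Across the 3 comparisons edgeR called PLK1 and ESPL1 in each, and DESeq2 called PLK1 in each and ESPL1 for number 2 alone. PLK1 did not overlap between the libraries numbered 1 and the rest, and in ESPL1 the lowest library numbered 1 (mono-culture, 82.9 CPM) lay above the highest of the others (control ECs replicate 2, 78.9 CPM). Both genes were picked by their calls in these same libraries, so that the lack of overlap describes the calls and adds no support. The share of all genes without such an overlap was not computed. CENPE was called in all 3 in edgeR and in none in DESeq2, where its adjusted p ran from 0.135 to 0.49, and with a prior for the spread that is robust to outlying genes, an alternative chosen after the data were seen, its adjusted p ranged from 0.346 to 0.711. KIF20B was likewise not called by either. The edgeR fit with the number gave each gene's own spread little weight, with 1195 prior degrees of freedom against 11.2 in the fit by group alone.

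**Figure D5:**
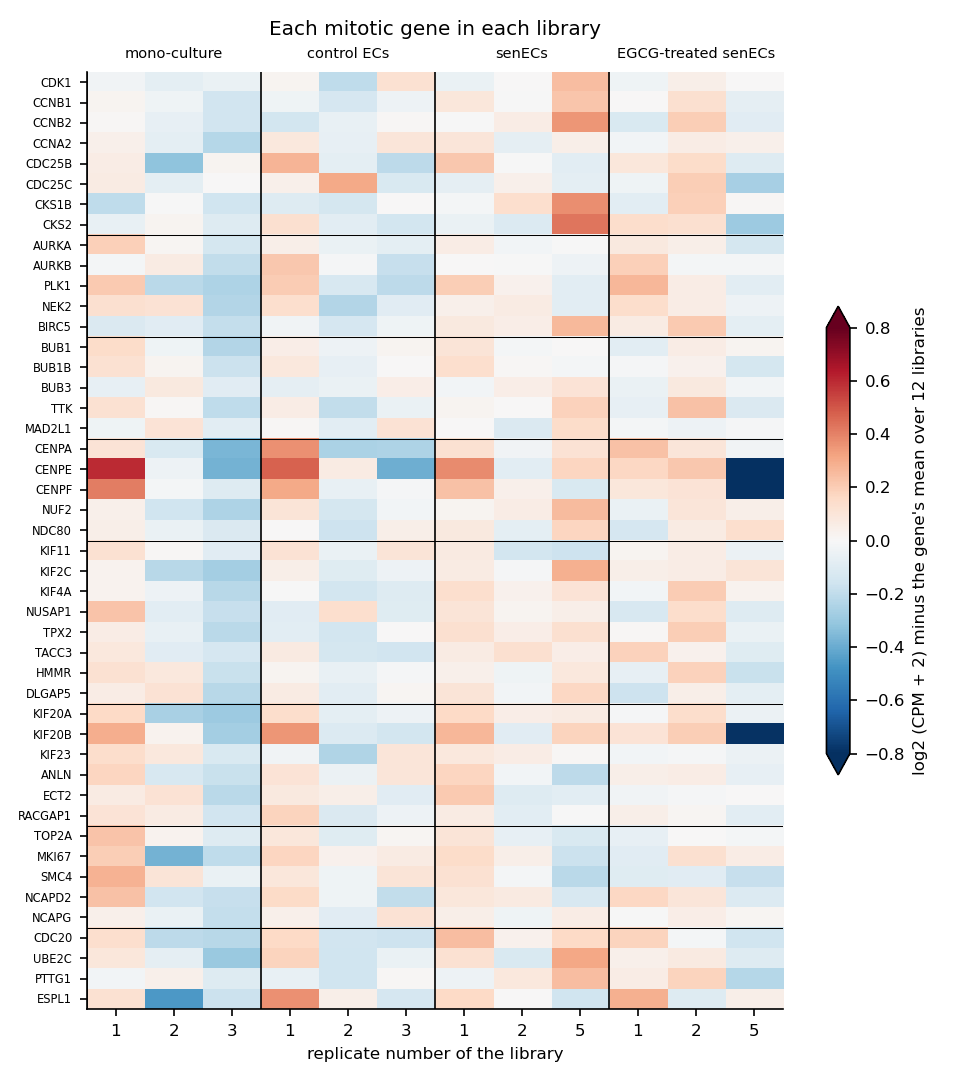
Log2 (CPM + 2) of each of the 46 mitotic genes in each library minus the mean of that gene over the 12 libraries, red above and blue below, with genes in the order of their roles and libraries by group and replicate number. Above their own mean were 38, 18 and 2 of the 46 genes in the mono-culture libraries and 36, 6 and 19 with control ECs. The counts were 39, 23 and 29 with senECs, and 23, 39 and 12 where the senECs had received EGCG. No such count was made over all genes. CENPE, CENPF and KIF20B are dark blue in EGCG-treated senEC replicate 5, where they had 50.2, 204 and 26.6 CPM.

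Other measured lists moved with the replicate number, and their part in the difference of the mitotic genes was not tested. Over all genes, edgeR called 4.88%, 3.8% and 8.16% in either direction for numbers 2, 3 and 5. The share of all genes called higher was not computed. Of 15 genes of the LPS response, edgeR called 8 higher and 1 lower (TNF) in the libraries numbered 2, 14 higher in those numbered 3 and 15 higher in those numbered 5. The mean log2 (CPM + 2) of these 15 was 5.82, 6.48 and 7.09 in mono-culture, 6.00, 6.41 and 7.29 with control ECs, 6.12, 6.35 and 7.51 with senECs, and 6.08, 6.39 and 7.36 where the senECs had received EGCG, so that in each group the library numbered 1 was the lowest. IL1B, the interleukin-1β gene, had a log2 fold change of 0.74 (SE 0.078, adjusted p = 1.73e-17) for number 2, 2.16 (SE 0.10, adjusted p = 4.32e-82) for number 3 and 2.37 (SE 0.10, adjusted p = 1.32e-98) for number 5. Of 12 monocyte markers 5, 5 and 6 were called higher and 0, 1 and 1 lower (LILRB4 in both), with CD14 at 0.86, 1.12 and 1.75. In the comparisons between groups, CD14 with senECs against mono-culture was the only gene called from these lists (log2 fold change 2.09, SE 0.42, adjusted p = 0.0363).

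Some genes that brake the cell cycle were higher in the same libraries. Of 16 such genes 15 were tested, and 2 were called higher and 1 lower for number 2, 3 higher for number 3 and 7 higher for number 5. In either direction 4.88%, 3.8% and 8.16% of all genes were called for these numbers. BTG2, an antiproliferative gene, averaged 259 CPM against 185 for number 2 (log2 fold change 0.48, SE 0.077, adjusted p = 2.13e-07), 465 CPM against 194 for number 3 (1.23, SE 0.10, adjusted p = 6.51e-30) and 436 CPM against 177 for number 5 (1.33, SE 0.10, adjusted p = 6.68e-35). BTG1, its relative, and PLK3, a stress-induced kinase of the Polo family, were called higher for number 3 at 0.71 and 0.91 and for number 5 at 0.85 and 0.95, and BTG1 also for number 2 at 0.58. CDKN1A (p21), the inhibitor of cyclin-dependent kinases, was called for number 5 alone, at 0.60 (SE 0.12, adjusted p = 1.5e-05). GADD45A (0.54), CDKN1B (0.45) and PLK2 (0.49) were likewise called for number 5 alone. The medians over the 15 genes were 0.055, 0.18 and 0.019 for numbers 2, 3 and 5. PKMYT1, the kinase that inhibits CDK1, was the gene called lower (-0.35, SE 0.083, adjusted p = 0.00145).

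Of 22 genes that regulate the transcription of mitotic genes, E2F1, an activator of genes of the G1/S boundary, was called lower for number 2 (-0.29, adjusted p = 0.0172) and number 3 (-0.36, adjusted p = 0.0375), and FOXM1, the forkhead factor that acts with MMB at CHR promoters, for number 3 (-0.35, adjusted p = 0.039) and number 5 (-0.39, adjusted p = 0.0111). E2F7, a repressor, was called higher for number 5 (0.36, adjusted p = 0.023). In the group comparisons 0 of the 22 were called, with 2, 2, 1, 0, 0 and 0 at an unadjusted p under 0.05 in the order of the comparisons above. That order is control ECs, senECs and EGCG-treated senECs against mono-culture, then senECs against control ECs, EGCG-treated senECs against senECs and EGCG-treated senECs against control ECs. In the same order 7.97%, 19.2%, 12.2%, 8.95%, 0.738% and 3.07% of genes of at least 10 CPM had such a p in edgeR.

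The 21 G2/M genes of the Seurat list that are not among the 46 had medians of -0.073, -0.085 and -0.055 for numbers 2, 3 and 5. PSRC1 (-0.33 and -0.59, adjusted p = 0.0101 and 0.000146) and GTSE1 (-0.28 and -0.38, adjusted p = 0.0156 and 0.0162), both microtubule-binding proteins, were called lower for numbers 2 and 3, and CBX5 (HP1α) for number 5 (-0.35, adjusted p = 0.0111). The 43 S phase genes of the same source had medians of -0.021, -0.029 and -0.0063, with UHRF1 called lower for number 3 (-0.36, adjusted p = 0.0179), and UHRF1, CDCA7 and CASP8AP2 for number 5. Of the 17 APC/C genes 0 were called for numbers 2 and 3, with 3 and 2 at an unadjusted p under 0.05, and 1 for number 5, ANAPC10, higher at 0.70 (adjusted p = 0.0233). Of all 25873 genes tested in edgeR, 3677 and 3100 had an unadjusted p under 0.05 for numbers 2 and 3. In the 6 group comparisons edgeR called 0 of the 43 S phase genes, 0 of the 21 G2/M genes, 0 of the 17 APC/C genes, 0 of the 15 inhibitors and 0 of the 15 LPS response genes. That fit has no term for the number, and the mean of the LPS response genes had an SD of 0.63 to 0.74 (log2) within groups. Their 0 calls therefore do not show that the LPS response was unchanged. S phase genes had higher medians than the mitotic genes against mono-culture, 0.13, 0.15 and 0.14 for the 3 co-cultures in the same order. Of the 43, 6, 7 and 8 had an unadjusted p under 0.05 in edgeR, where 7.97%, 19.2% and 12.2% of genes of at least 10 CPM did. The difference between the lists was not tested.

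The Pearson correlation of a gene's log2 CPM with the mean of the other 45 was highest for BUB1B (0.88), KIF20A (0.87), UBE2C (0.86), CDC20 (0.85) and AURKA (0.84), and lowest for CDC25C (0.16), BUB3 (0.16), MAD2L1 (0.17) and CKS1B (0.23). CDC25C is among the least counted of the 46, and BUB3 and MAD2L1 among those of the smallest spread. Yet CDC25B (0.55) and NUSAP1 (0.56), counted nearly as low as CDC25C, correlated more highly. So did NCAPG (0.68), CCNB1 (0.75) and CCNA2 (0.68), of smaller spread than MAD2L1. Why some genes correlated less was not tested. Among 9305 other genes of at least 10 CPM, those whose log2 CPM was most like the mean of the 46 over the 12 libraries were CDK8 (r = 0.92), NCAPH (0.91), QRSL1 (0.90), MCM3 (0.89) and HJURP (0.89). These values describe 12 points that share library depth and normalization, and the 12 libraries fall into 4 groups.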

How the data were processed

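Raw read counts of 58735 genes in THP1 cells were used as deposited by the authors, who sequenced mRNA in read pairs. The submitters' processing notes name HISAT2 and the build hg38, while the counting program, its annotation and its use of strand are not given in the sources used here. Of 16 columns, 12 matched labelled samples, and 4 that matched none were not used. Library totals had a median of 18153783.5 counts. Symbols were matched to GENCODE 29 for lengths and positions. Genes with at least 10 counts in all were tested with edgeR 4.0.16 (quasi-likelihood, TMM, R 4.3.3, Benjamini-Hochberg adjustment over all genes) by group, and by group and replicate number. CPM used TMM sizes, log2 CPM a pseudocount of 2, and intervals are 95% intervals. DESeq2 1.42.0, other filters, scaling and sample sets, a replicate block and leaving out each library were the alternatives. The tests were checked on simulated counts with planted changes of 2-fold up or down. Smaller changes, such as those between groups here, were not simulated. For the fit by group, no difference between replicate numbers was simulated. Intervals and floors cover counting error only where they rest on counts of 1 library. Values in every library are given for genes called, for the 2 with the highest FPKM per role and for the 2 with the smallest p per group comparison. From other lists up to 3 called genes per comparison by p are named, and for number 5 all 7 inhibitors called. S phase and G2/M lists are those of Seurat 5.3.0. The 46 genes and all lists were chosen with earlier results of these data known.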

Additional observations from a re-analysis of the deposited data

How the results depend on the processing

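The count of mitotic genes called between groups was 0 under each alternative run. Log2 fold changes of single genes were followed only for genes called by replicate number and the 2 smallest p of each group comparison. None of these 19 and 12 results changed sign. They were picked by their p, so that a change of sign was unlikely, and the signs of the other genes were not examined. The median of the 46 changed sign in 4 of the 6 group comparisons when 1 library was left out, control ECs against mono-culture (-0.038 to 0.077), EGCG-treated senECs against mono-culture (-0.00088 to 0.12), against senECs (-0.088 to 0.0039) and against control ECs (-0.022 to 0.069, and -0.010 with the replicate block). Between libraries numbered 2 and 1 the count of 5 became 3 with DESeq2, 3 with at least 10 counts required in every library and 3 with a robust prior, the last chosen after seeing the data. For number 3 the count of 8 became 4, 5 and 5 in that order. Leaving out 1 library at a time gave counts of 0 to 7 for number 2 and of 1 to 8 for number 3, with medians of -0.13 to -0.046 and -0.28 to -0.062, and for number 5 counts of 4 to 8 and medians of -0.18 to -0.050. The causes were not tested. Where leaving out a library leaves a number with 1 library, that library is assumed to vary like the others. Over all genes tested, calls for control ECs, senECs and EGCG-treated senECs against mono-culture were 37, 80 and 55, and 120, 347 and 230 with DESeq2, 223, 588 and 377 without a filter, 34, 60 and 36 with 10 counts in every library, 52, 20 and 35 with the 6 libraries compared alone, and 55, 131 and 82 with the robust prior. Without a filter, the other 3 comparisons went from 0 to 114, 14 and 43. The replicate block gave 469, 709, 424, 153, 13 and 34 calls over all genes in the 6 comparisons and 0 among the 46. The smallest adjusted p among the 46 was then 0.0544 in edgeR, for CENPE with EGCG-treated senECs against senECs. CENPE had 50.2 CPM in replicate 5 with EGCG-treated senECs, against 131 and 135 in replicates 1 and 2. With the block each gene's own spread had little weight (1195 prior degrees of freedom). The labels do not say what the numbers stand for. Deviations of libraries of the same number in 2 groups correlated at 0.36 to 0.472 for number 1, 0.0351 to 0.243 for number 2, 0.338 for number 3 and 0.287 for number 5, and in 12 of 14 such pairs the library of the same number was the best match, number 2 being the exception in both others. Number 2 had correlations of 0.0351, 0.0373, 0.0533 and 0.0926, under 0.1, and others of 0.188 and 0.243, and was the best match in 4 of its 6 pairs. The group comparisons reported are those without the block. With 3 libraries a group, an exact permutation test of 1 value cannot go below p = 0.1.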

Other observations

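The log2 CPM of the library with EGCG-treated senECs numbered 5 lay below the mean of the other 2 libraries of its group by more than 0.5 for 3 of the 46 mitotic genes, CENPE (-1.37), CENPF (-0.97) and KIF20B (-0.94), and the median over the 46 was -0.12. All 3 have a longest annotated transcript of over 6000 bases in which A and G make up over 57% of the sense strand (CENPE 8612 bases and 61.4%, CENPF 10307 and 60.2%, KIF20B 6419 and 57.5%), limits that were chosen after these values were seen. MKI67, with 12678 bases and 56.7%, falls just outside the second limit and was not low in that library (0.037). Of the 16 other genes of at least 10 CPM with transcripts inside both limits, 4 lay below -0.5 in that library (median -0.12), among them AKAP9 (-1.66), a scaffold of the Golgi and centrosome, GOLGA4 (-1.15), a golgin, and CEP290 (-0.82), a protein of the ciliary base. In that library 8 of 1934 other genes with a transcript over 6000 bases and 129 of all 9327 genes of at least 10 CPM lay below -0.5. In each of the other 11 libraries 0 to 2 of the 16 did, and 26 to 329 of the 9327. Whether the difference lies in the cells or in the library was not tested.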
